A study of Mus musculus with 6 samples.

Results

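The 39 genes described here encode cytokines, chemokines, cytokine and Toll-like receptors, and a small group of their inhibitors, targets and adhesion molecules. They were taken as a named list, chosen with earlier results of these data known. They were found on the arrays through the RefSeq accession of each probe. All 39 had a probe, out of 20145 named genes with a probe, and 32 were measured well enough to be tested. Messenger RNA was measured on 6 one-colour Agilent arrays, each from the ventricles of male mice of the C57bl/6j background at 11 to 12 weeks of age. The 3 Tead1 icKO hearts came from mice with the genotype Tead1F/F; Myh6-CreER, given tamoxifen. The 3 control hearts came from Tead1 flox mice, also given tamoxifen. The Myh6 promoter drives the tamoxifen-activated recombinase in cardiomyocytes, so other cells of the ventricle are not its target. No Cre is named for the control mice, and so an effect of the recombinase and the loss of Tead1 cannot be told apart. How long after tamoxifen the tissue was taken is not stated in the labels.

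Chemokines are small secreted proteins that bind G protein-coupled receptors on leukocytes and direct their migration. Cytokines such as interleukin-1 beta and interleukin-6 act through their own receptors, and Toll-like receptors recognise microbial products and molecules released by damaged cells. Interleukin-1 and Toll-like receptors signal through the adaptor MyD88 to NF-kappa-B, while the interleukin-6 family signals through gp130 and STAT3, and both routes induce their own inhibitors. In the heart these genes are expressed by resident and recruited macrophages, fibroblasts, endothelial cells and, for some receptors, cardiomyocytes.

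The stretch before the gene start is shown for 5 of the genes that rose, because it holds recognition letters of the factors at the end of these routes. Sequences are from RefSeq on GRCm38.p6, run 5′ to 3′ along the gene's own strand and cover the 250 bases before the start. Il6, interleukin-6, lies on the plus strand at chr5:30012864-30013113, and the capitals mark an AP-1 match and an NF-kappa-B match. Tlr2, Toll-like receptor 2, lies on the minus strand at chr3:83841609-83841858, with overlapping NF-kappa-B matches in capitals. Nfkbia, the NF-kappa-B inhibitor IkappaB-alpha, lies on the minus strand at chr12:55492648-55492897, with an NF-kappa-B match in capitals. Socs3, a feedback inhibitor of STAT3 signalling, lies on the minus strand at chr11:117969367-117969616, with a STAT match in capitals. Icam1, an adhesion molecule for leukocytes, lies on the plus strand at chr9:21015690-21015939, with a STAT match in capitals.
Il6: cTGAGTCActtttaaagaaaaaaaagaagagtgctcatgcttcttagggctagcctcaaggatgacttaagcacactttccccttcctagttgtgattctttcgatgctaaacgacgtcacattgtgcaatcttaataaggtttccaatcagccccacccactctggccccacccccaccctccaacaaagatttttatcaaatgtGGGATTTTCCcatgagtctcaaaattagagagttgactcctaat
Tlr2: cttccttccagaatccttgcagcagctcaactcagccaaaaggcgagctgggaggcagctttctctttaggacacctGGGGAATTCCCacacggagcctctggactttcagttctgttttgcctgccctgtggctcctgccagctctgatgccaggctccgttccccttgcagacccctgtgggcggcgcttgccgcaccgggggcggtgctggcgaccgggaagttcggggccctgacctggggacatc
Nfkbia: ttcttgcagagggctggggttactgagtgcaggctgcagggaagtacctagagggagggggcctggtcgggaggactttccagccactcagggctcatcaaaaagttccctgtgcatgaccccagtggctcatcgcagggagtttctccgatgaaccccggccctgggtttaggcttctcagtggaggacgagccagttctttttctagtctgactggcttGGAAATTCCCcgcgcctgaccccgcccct
Socs3: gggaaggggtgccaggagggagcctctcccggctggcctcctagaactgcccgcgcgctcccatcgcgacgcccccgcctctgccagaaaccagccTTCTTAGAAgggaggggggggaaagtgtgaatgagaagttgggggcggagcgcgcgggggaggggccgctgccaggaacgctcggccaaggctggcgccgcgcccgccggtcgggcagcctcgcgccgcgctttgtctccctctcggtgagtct
Icam1: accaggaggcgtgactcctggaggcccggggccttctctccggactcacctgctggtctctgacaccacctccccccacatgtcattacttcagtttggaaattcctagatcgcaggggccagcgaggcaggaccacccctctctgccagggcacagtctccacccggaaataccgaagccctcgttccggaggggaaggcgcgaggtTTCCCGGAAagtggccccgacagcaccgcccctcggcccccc
A promoter entry was at hand for 28 of the 39 genes and for 12 of the 16 that were called higher below. Both strands were searched. A listed gene counted if any of its promoter entries matched, whereas the percentages are shares of promoter entries, so the units differ. The NF-kappa-B consensus was found in 9 of the 28, 4 of them called higher (Il1r1, Il6, Nfkbia and Tlr2), and in 7.25% of 32851 promoters of the same length. The STAT letters TTCNNNGAA were found in 3 of the 28 (Cxcl14, Icam1 and Socs3), against 7.02% of all promoters. The AP-1 letters TGACTCA were found in Cxcl10 and Il6, against 4.46%, and the TEAD letters GGAATG in Cxcl13, Il1r1, Il1rl1 and Il33, against 12.6%. A match describes these letters only, and no binding was measured.

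Each array held 62976 spots, and 47.7% to 50.9% of the probes were well above background. Array signals correlated at 0.989 to 0.992 within the controls, 0.987 to 0.992 within the icKO hearts and 0.947 to 0.958 between the groups. The 6 cardiomyocyte markers were well above background in every heart. The brightest of 3 Tead1 probes lay at 3.79 to 4.01 in controls and at 3.44 to 3.66 in icKO hearts, a log2 difference of -0.40 ± 0.11 (SE; adjusted p = 0.0300). Scaled to spike-in probes it was 0.04, and it missed the threshold without control replicate 1 (-0.35) or 3 (-0.38) or icKO replicate 2 (-0.36) or 3 (-0.37). Nor did it pass with median scaling (-0.24, adjusted p = 0.186), when dim probes were kept in the test (adjusted p = 0.122), or with the slide row or the slide column as a block (adjusted p = 0.0631 and 0.339). The position of this probe relative to the deleted part is not known here, so it does not check the labels.

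Levels are log2 of the processed signal relative to the 75th percentile of the same array, so 0 is that percentile and a difference of 1 is a factor of 2. They compare hearts for 1 probe, not 1 probe with another. Differences are icKO minus control with the standard error of the limma fit, 3 hearts a group, and adjusted p-values are Benjamini-Hochberg over 22278 features with a threshold of 0.05. Of the 32 genes tested, 18 were called (56.2%), 16 of them higher and 2 lower in icKO. Over all features 44.8% were called, 16.0% higher and 28.7% lower, and over named genes 48.2%, 20.3% higher and 27.9% lower. The median difference was 0.83 over the 32 genes, -0.14 over all features and -0.07 over named genes. As the list was chosen with earlier results of these data known, these shares and medians are not an independent test of it. The groups did not overlap for 20 of the 32 (62.5%), a share near the 59.3% of all features and the 63.5% of named genes. Il1b and Il6 passed the filter on dim probes only through the icKO hearts and Cxcl1 only through the controls. Among the 29 genes above background on all 6 arrays, 14 were higher and 2 lower. All such features gave 45.6% called, 16.1% higher and 29.5% lower. In the same hearts 8 of 9 macrophage markers and 5 of 6 fibroblast markers were higher. By contrast, 5 of 6 cardiomyocyte markers and 3 of 7 endothelial markers were lower, and the remaining marker lists are given below. The RNA came from whole ventricle, so a change in the number of cells of a type and in the RNA per cell cannot be told apart.

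**Figure D1:**
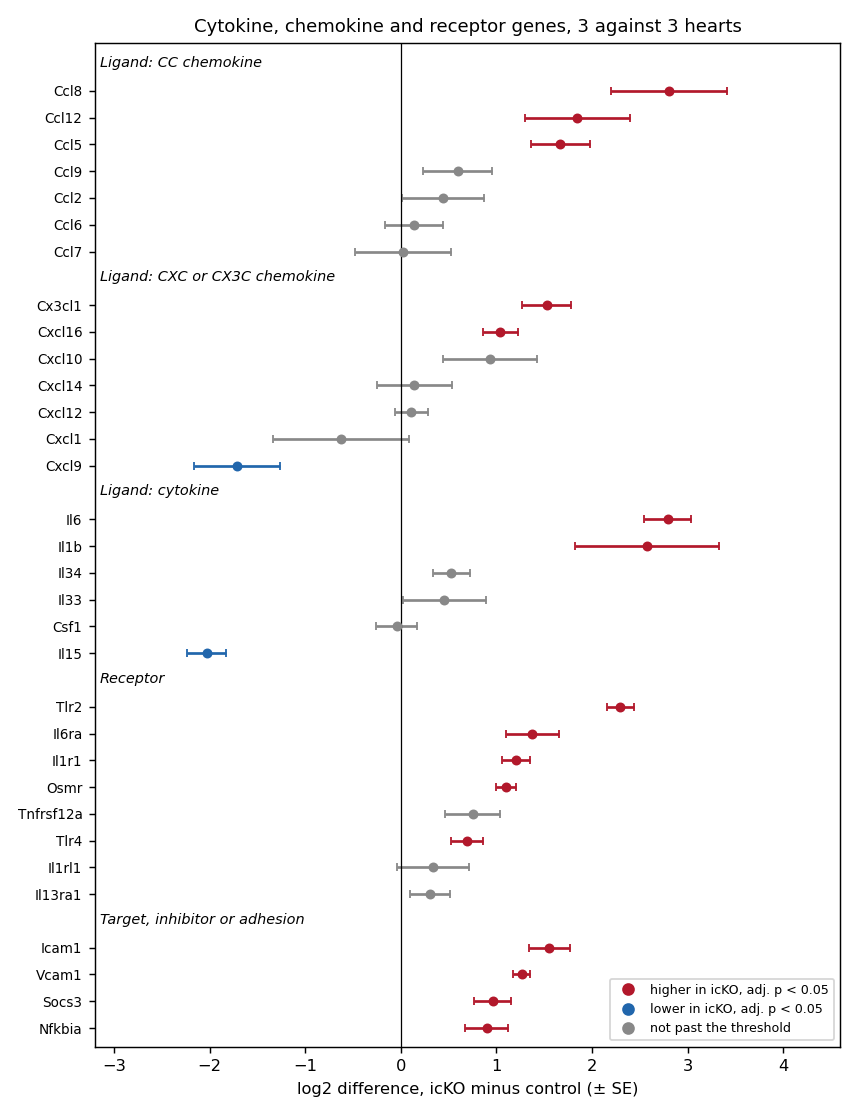
Log2 difference (icKO minus control, x axis) of the 32 tested genes, ordered by role and by size, with bars of 1 standard error and 3 hearts a group. Red marks the 16 genes called higher, blue the 2 called lower (Cxcl9 and Il15) and grey the 14 that did not pass, and the error bar is widest for Il1b.

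Scaling bears on these counts. Median scaling added 0.16 and scaling to spike-in probes 0.44 to the difference of the median feature. Over all features the calls were 3573 higher and 6401 lower here. Median scaling turned them to 4398 and 3657, and spike-in scaling to 7100 and 1658. The 39-gene list gave 18 higher and 2 lower under the first and 21 and 2 under the second. All 18 called genes kept their direction under every alternative that gave a value for them. Of these, 13 also stayed called under every such alternative except the slide column as a block, namely Ccl5, Ccl8, Cxcl16, Cx3cl1, Il6, Il15, Il1r1, Il6ra, Osmr, Tlr2, Socs3, Icam1 and Vcam1. Il6 and Il1b had no value where a probe had to be above background on all 6 arrays.

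Among the CC chemokines, Ccl8, Ccl12 and Ccl5 were higher in icKO hearts and none of the 7 tested was lower, while Ccl2, Ccl6, Ccl7 and Ccl9 did not pass. Ccl8, a monocyte chemoattractant of the MCP group, was measured at -1.09, -2.64 and -1.55 in the controls and at 1.16, 2.02 and -0.05 in the icKO hearts. Every icKO heart lay above every control, with a difference of 2.81 ± 0.60 (7.0-fold, adjusted p = 0.0116). Ccl5, known as RANTES, stood at -0.53, -0.89 and -1.10 in controls and at 0.75, 1.44 and 0.29 in icKO. These groups did not overlap either, and the difference was 1.67 ± 0.31 (3.18-fold, adjusted p = 0.00658). Ccl12, a mouse ligand of Ccr2, gave -1.28, -2.54 and -0.67 in controls and -0.26, 1.14 and 0.18 in icKO. The lowest icKO heart was close to the highest control, and the spread within both groups was wide. The difference was 1.85 ± 0.55 (adjusted p = 0.0348). The difference did not pass without control replicate 1 (1.96, adjusted p = 0.0747), control replicate 2 (1.32, adjusted p = 0.0685), icKO replicate 2 (1.45, adjusted p = 0.0919) or icKO replicate 3 (1.93, adjusted p = 0.0745).

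Ccl2, the main monocyte chemoattractant MCP-1 and a ligand of Ccr2, was measured at -0.59, -1.90 and -0.76 in controls and at -0.49, -0.14 and -1.29 in icKO. Its groups overlapped, with control replicate 2 lowest and icKO replicate 2 highest, and the difference was 0.44 ± 0.43 (adjusted p = 0.431). Ccl7, another MCP chemokine, ranged from -2.0 to -0.97 in controls and from -2.0 to -0.28 in icKO (0.02 ± 0.50, adjusted p = 0.972). Ccl6 and Ccl9, made by myeloid cells, differed by 0.13 ± 0.30 and 0.59 ± 0.36 (adjusted p = 0.742 and 0.224). Scaled to spike-in probes, Ccl9 passed as higher (1.04, adjusted p = 0.0213). Ccl11, the eotaxin, was well above background on 2 of 3 controls and on 0 of 3 icKO arrays, so it was not tested in the main fit. With no filter on dim probes, or without control replicate 2, it entered the test and was called lower. Its icKO readings there were under background.

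The CC chemokine genes lie in neighbouring groups on chromosome 11. In the RefSeq order of protein-coding genes on GRCm38.p6, Ccl2, Ccl7, Ccl11, Ccl12 and Ccl8 follow one another, and Ccl5, Ccl9 and Ccl6 follow one another further on. Within the first group, the called genes Ccl12 and Ccl8 are neighbours at one end, and Ccl2 and Ccl7, which did not pass, are neighbours at the other. Within the second, Ccl5 was called and Ccl9 and Ccl6 were not. Across the 7 tested genes the same hearts tended to be high or low. Control replicate 1 was the highest control for 6 of the 7 and control replicate 2 the lowest for 5. Among icKO hearts, replicate 2 was highest for 6 of the 7. Over all 32 tested genes, icKO replicate 2 was the highest icKO heart for 20 and control replicate 2 the lowest control for 18. These ranks were not counted over all features, so they do not set these genes apart from the rest of the array.

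**Figure D2:**
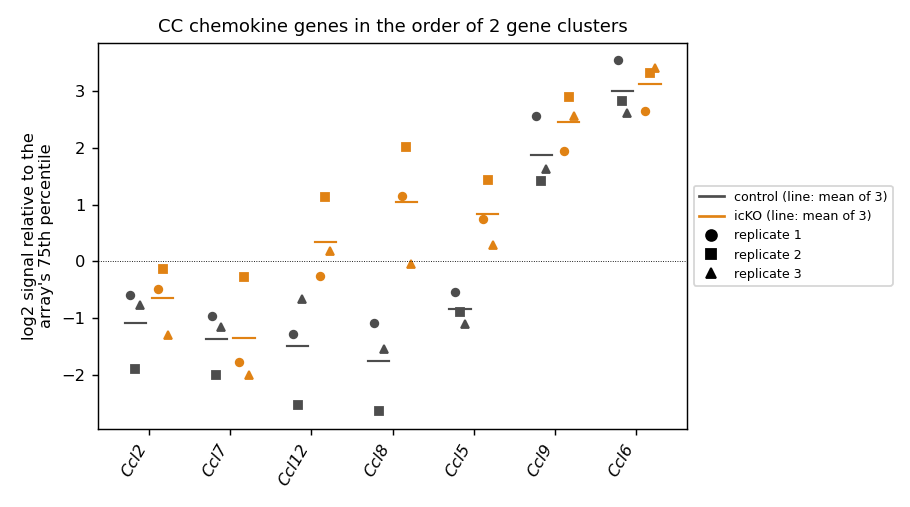
Log2 signal relative to the array's 75th percentile (y axis) of the 7 tested CC chemokine genes in their order along chromosome 11, with 1 point per heart, a shape per replicate number and a line at each group's mean. The groups are separate for Ccl12, Ccl8 and Ccl5 and overlap for Ccl2, Ccl7, Ccl9 and Ccl6, and the squares of icKO replicate 2 are the highest icKO points for 6 of the 7 genes.

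Among the CXC and CX3C chemokines, the transmembrane chemokines Cx3cl1 and Cxcl16 were higher, Cxcl9 was lower and 4 others did not pass. Cx3cl1, fractalkine, is anchored in the membrane and binds Cx3cr1 on monocytes and macrophages. It was measured at 0.88, 1.5 and 1.35 in controls and at 2.29, 3.10 and 2.92 in icKO. All icKO hearts were above all controls, by 1.53 ± 0.26 on average (adjusted p = 0.00489). Cxcl16, which is also membrane-bound and binds Cxcr6, gave -0.34, -0.11 and -0.22 in controls and 0.55, 1.19 and 0.72 in icKO. The controls lay close together below every icKO heart, and the difference was 1.04 ± 0.18 (adjusted p = 0.00545).

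Cxcl9, an interferon-gamma-induced ligand of Cxcr3, went the other way. It was measured at -0.51, -0.84 and -0.37 in controls and at -3.30, -1.46 and -2.11 in icKO. All icKO hearts were below all controls, with icKO replicate 1 the lowest, and the difference was -1.72 ± 0.45 (adjusted p = 0.0225). Its second probe, above background on 2 of 3 icKO arrays, gave -1.55 ± 0.30 (adjusted p = 0.00766 over all probes). The call of the brighter probe was lost without control replicate 1 (-1.68, adjusted p = 0.0666), control replicate 3 (-1.61, adjusted p = 0.0676) or icKO replicate 3 (-1.81, adjusted p = 0.0520). That call was also lost with no filter on dim probes. Cxcl10, another interferon-induced ligand of Cxcr3, ranged from -3.24 to -2.02 in controls and from -2.60 to -0.95 in icKO. Its groups overlapped (0.93 ± 0.49, adjusted p = 0.168), and scaling to spike-in probes brought it past the threshold (1.38, adjusted p = 0.0410).

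Cxcl12, the stromal ligand of Cxcr4, was measured at 5.26, 5.62 and 5.80 in controls and at 5.87, 5.52 and 5.63 in icKO. The groups overlapped and differed by 0.11 ± 0.17 (adjusted p = 0.621), and a second probe gave -0.21 ± 0.15. Cxcl14 ranged from 1.90 to 1.95 in controls and from 1.18 to 2.85 in icKO (0.14 ± 0.39, adjusted p = 0.788). Cxcl1, a neutrophil chemoattractant, ranged from -3.14 to -2.29 in controls and from -4.86 to -1.90 in icKO, where 2 of 3 arrays were above background (-0.63 ± 0.71, adjusted p = 0.499). The difference was -1.38 without icKO replicate 1 (adjusted p = 0.0712) and 0.10 without icKO replicate 3, so 1 heart decides its sign. Cxcl2 and Cxcl5, which attract neutrophils, and Cxcl13, which attracts B cells, were well above background on no array.

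Of the cytokines, Il6 and Il1b were higher, Il15 was lower, and Il33, Il34 and Csf1 did not pass. Il6 was well above background on 0 of 3 control arrays and on all 3 icKO arrays. Its probe read -5.63, -5.57 and -5.97 in controls and -2.68, -2.64 and -3.47 in icKO. The fit on these readings, with the controls under background, gave 2.79 ± 0.25 (adjusted p = 0.000581). The icKO hearts were at least 1.90-fold brighter, where the brightness of the dimmest measured probe stands in for the controls. That bound ranged from 1.48-fold to 2.29-fold when 1 array was left out.

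Il1b, the secreted agonist of the interleukin-1 receptor, was also above background on 0 control arrays and on 3 icKO arrays. Readings were -4.49, -4.51 and -5.46 in controls and -0.50, -2.78 and -3.45 in icKO. The icKO hearts were well apart from one another, with replicate 1 far above the others. The bound was at least 3.07-fold, 1.68-fold without icKO replicate 1 and 4.66-fold without icKO replicate 3. The fit on the readings, with the controls under background, gave 2.57 ± 0.75 (adjusted p = 0.0330). The call was lost without any 1 control (2.74, 2.73 and 2.25, adjusted p = 0.0705, 0.0668 and 0.0950) or without icKO replicate 2 (2.84, adjusted p = 0.0550). It was also lost with normexp background correction (0.52, adjusted p = 0.243). In icKO replicate 1 the neutrophil markers S100a8, S100a9 and Retnlg were highest too, at 2.50, 4.34 and -0.003, against 0.55 to 0.59, 2.45 to 2.53 and -2.16 to -2.07 in the other icKO hearts. The neutrophil marker Csf3r was slightly higher there, at 6.75 against 6.63 and 6.62. Elane, also a neutrophil marker, went the other way, at -0.88 against -0.67 and -0.66. The decoy receptor Il1r2, also carried by neutrophils, read -0.29 there against -3.59 and -3.25. The red cell markers Alas2, Slc4a1 and Hba-a1 were also highest in that heart. They read 6.46, 2.02 and 10.27 there, against 4.25 to 4.62, 0.17 to 1.06 and 9.24 to 9.66 in the other icKO hearts. The part of these blood cell genes in the Il1b result was not tested.

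Il15, which supports natural killer and memory CD8 T cells, was measured at 0.07, 0.62 and 0.54 in controls and at -1.76, -1.29 and -1.80 in icKO. Both groups were tight and far apart, and the control level was 4.08-fold that of icKO (-2.03 ± 0.20, adjusted p = 0.000859). The call held under every alternative tried. Of the 5 natural killer cell markers listed, Ncr1, Klrb1c, Klrk1 and Eomes were well above background on no array. Nor were the T cell markers Cd3g and Cd8a above it. The T cell markers Cd3e, Cd4, Cd2 and Lck and the natural killer cell marker Gzma were above it on all 6 arrays. Of these, Cd3e and Cd4 were lower in icKO (calls lost with median or spike-in scaling) and Lck was higher. Cd2 and Gzma did not pass.

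Il34, an alternative ligand of the Csf1 receptor, ranged from 0.15 to 0.85 in controls and from 0.89 to 0.98 in icKO. The groups just failed to overlap, and the difference of 0.53 ± 0.19 did not pass (adjusted p = 0.0667). Leaving out control replicate 1 brought it past the threshold (0.74, adjusted p = 0.00697), as did normexp, median scaling, spike-in scaling or trend and robust eBayes. Il33, an alarmin released by damaged cells, ranged from -1.88 to -1.41 in controls and from -2.08 to -0.33 in icKO. It differed by 0.46 ± 0.43 (adjusted p = 0.420), or by 0.94 without icKO replicate 1 (adjusted p = 0.0342). Il18, an interleukin-1 family cytokine, was above background on 2 arrays of each group and was not tested. Tnf and the anti-inflammatory Il10 were well above background on no array.

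Csf1, the macrophage growth factor, gave different results by probe. Its brightest probe, which stands for the gene here, read 2.28, 1.98 and 2.63 in controls and 2.13, 2.59 and 2.05 in icKO. These values overlapped and differed by -0.04 ± 0.22 (adjusted p = 0.890). Both other probes are filed under another RefSeq transcript of Csf1. One of them read -0.43, -1.09 and -0.43 in controls and 1.0, 1.01 and 0.94 in icKO, a difference of 1.63 ± 0.19 (adjusted p = 0.00140 over all probes). The other read -0.19, -0.69 and -0.56 against 0.96, 1.18 and 0.83, a difference of 1.47 ± 0.16 (adjusted p = 0.00118 over all probes). All icKO hearts were above all controls on both. With the mean of its probes Csf1 was called higher (1.02, adjusted p = 0.00465). Where each probe lies along the transcripts was not tested.

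**Figure D3:**
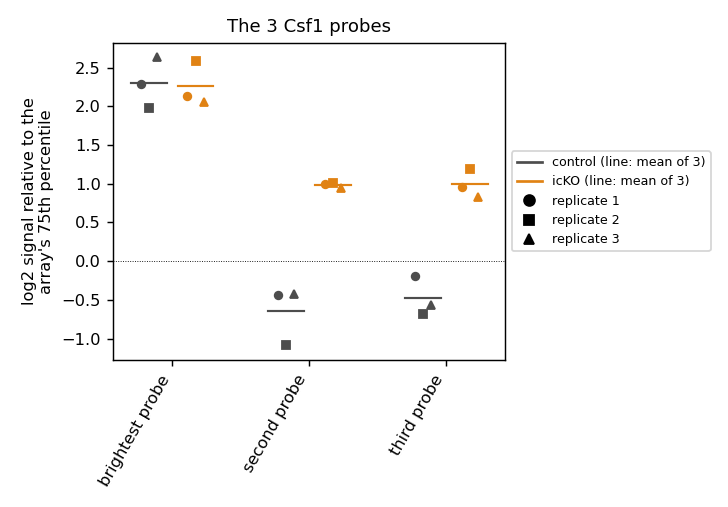
Log2 signal relative to the array's 75th percentile (y axis) for the 3 Csf1 probes, ordered by brightness, with 1 point per heart, a shape per replicate number and a line at each group's mean. The groups overlap on the brightest probe and are separate on both others.

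The receptors moved in 1 direction where they passed: 5 of 8 were higher and none lower. Tlr2, a Toll-like receptor for bacterial lipoproteins, was measured at -0.37, -0.78 and -0.51 in controls and at 1.67, 1.92 and 1.64 in icKO. The groups were tight and separate, with a difference of 2.30 ± 0.14 (4.91-fold, adjusted p = 0.000225). Tlr4, the lipopolysaccharide receptor, gave 0.69, 0.11 and 0.47 in controls and 0.95, 1.25 and 1.13 in icKO. The shift was smaller, 0.69 ± 0.17 (adjusted p = 0.0186). The difference did not pass without icKO replicate 2 (0.62, adjusted p = 0.0584) or icKO replicate 3 (0.68, adjusted p = 0.0557).

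Il1r1, the signalling receptor of interleukin-1, was measured at -0.35, -0.77 and -0.45 in controls and at 0.86, 0.63 and 0.54 in icKO. All icKO hearts were higher, by 1.2 ± 0.15 (adjusted p = 0.00165). Il6ra, the ligand-binding interleukin-6 receptor, gave 2.01, 1.21 and 1.39 in controls and 3.36, 2.76 and 2.61 in icKO. In each group replicate 1 was highest, and the groups did not overlap (1.37 ± 0.28, adjusted p = 0.00919). Osmr, the oncostatin M receptor, gave 1.86, 1.76 and 1.70 in controls and 2.78, 3.0 and 2.85 in icKO. Its spread within groups was small, and the difference was 1.1 ± 0.10 (adjusted p = 0.000701).

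The remaining 3 receptors did not pass. Tnfrsf12a, the receptor of the cytokine TWEAK known as Fn14, ranged from 4.02 to 5.07 in controls and from 5.21 to 5.6 in icKO. The groups did not overlap, but the controls were wide, and the difference was 0.75 ± 0.29 (adjusted p = 0.0747). It was called higher with normexp, quantile normalization, median scaling and spike-in scaling (0.83, 0.85, 0.91 and 1.19). Il1rl1, the receptor of Il33, ranged from -2.26 to -1.64 in controls and from -2.39 to -0.93 in icKO (0.34 ± 0.38, adjusted p = 0.496). Il13ra1, a subunit of the interleukin-13 receptor, differed by 0.31 ± 0.21 (adjusted p = 0.275). Scaled to spike-in probes it passed (0.75, adjusted p = 0.0126).

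All 4 of the inhibitor, target and adhesion genes were higher. Vcam1, which binds the integrin of Itga4 and Itgb1, was measured at 1.47, 1.33 and 1.45 in controls and at 2.72, 2.68 and 2.65 in icKO. Both groups were tight and far apart, with a difference of 1.26 ± 0.09 (adjusted p = 0.000319), and a second probe gave 1.52. Icam1, which binds integrins of Itgb2, gave -2.72, -3.14 and -3.54 in controls and -1.38, -1.69 and -1.66 in icKO. Again the groups did not overlap, and the difference was 1.55 ± 0.22 (adjusted p = 0.00255).

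Socs3, whose promoter above holds the STAT letters, was measured at 0.03, -0.06 and -0.04 in controls and at 1.25, 0.51 and 1.05 in icKO. The controls were nearly equal and every icKO heart was higher, by 0.96 ± 0.19 (adjusted p = 0.00917). Nfkbia, whose promoter holds an NF-kappa-B match, gave 3.89, 4.46 and 4.22 in controls and 5.20, 4.68 and 5.39 in icKO. Control replicate 2 and icKO replicate 2 came closest, and the difference was 0.90 ± 0.23 (adjusted p = 0.0199). It was lost without control replicate 1 (0.75, adjusted p = 0.0608), control replicate 3 (0.91, adjusted p = 0.0536), icKO replicate 1 (0.84, adjusted p = 0.0579) or icKO replicate 3 (0.75, adjusted p = 0.0600).

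**Figure D4:**
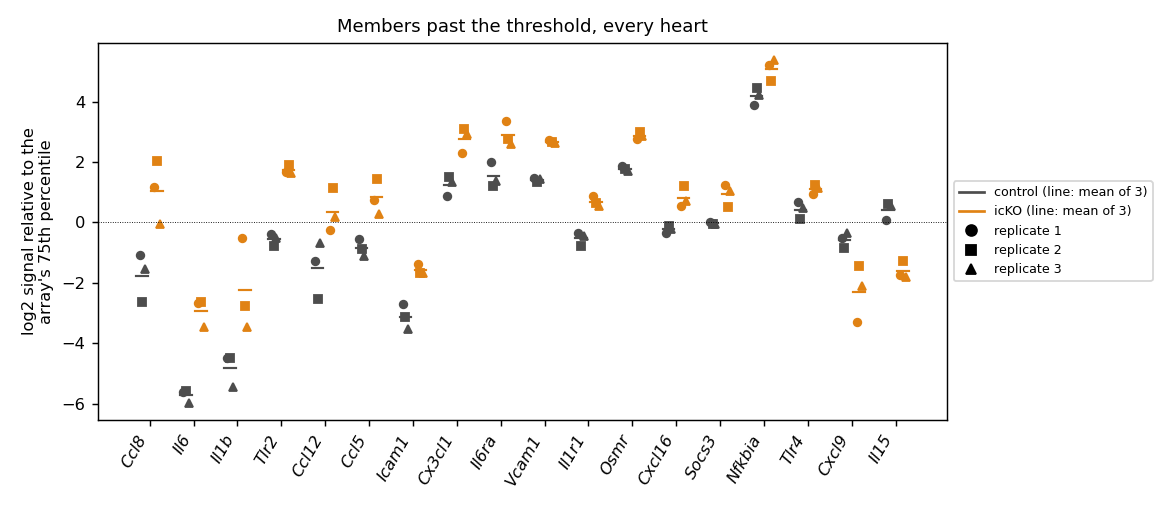
Log2 signal relative to the array's 75th percentile (y axis) of the 18 genes past the threshold, with 1 point per heart, a shape per replicate number and a line at each group's mean, and levels of different genes are not comparable with one another. The 16 genes called higher have all icKO points above all control points, Cxcl9 and Il15 have them below, and the control points of Il6 and Il1b were not well above background.

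Genes of the same pathways outside the list included rises and falls. Of 122 such genes, 92 were tested, 27 were higher and 10 lower, with a median difference of 0.20. Calls in either direction made up a smaller share than the 48.2% of named genes or the 44.8% of all features. The share higher was above the 20.3% of named genes, and the share lower was below their 27.9%. Groups were separate for 51 of the 92, a smaller share than the 63.5% of named genes or the 59.3% of all features. With spike-in scaling 52 of the pathway genes were higher and 2 lower. Ackr1, Cxcr3, Il17ra, Il1r2, Selp and Tlr6 were dim in every control, so they could enter the test only through the icKO hearts. That filter favours higher levels in icKO. All of them were called higher except Cxcr3 (1.45 ± 0.57, adjusted p = 0.0807). Among the 78 genes above background on all 6 arrays, 23 were higher and 12 lower. Among the chemokine receptors 5 of 13 were higher and none lower, or 4 and 1 of the 9 above background on all 6 arrays. Cxcr6, the receptor of Cxcl16 on T cells and other lymphocytes, was measured at -1.55, -1.42 and -1.29 in controls and at 1.15, 1.16 and 1.19 in icKO. The icKO hearts were nearly equal and 5.98-fold above the controls (2.58 ± 0.10, adjusted p = 9.18e-05), and a second probe gave 2.52. The atypical receptors Ackr4 and Ackr1, which bind chemokines without G protein signalling, were also higher. Ackr4 differed by 1.87 ± 0.18 (adjusted p = 0.000747). Ackr1, dim in every control, was at least 3.33-fold brighter in icKO. The fit on its readings, with the controls under background, gave 2.10 ± 0.28 (adjusted p = 0.00213), and under normexp the log2 difference was 0.46 (adjusted p = 0.0326).

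Cx3cr1, the receptor of Cx3cl1, did not pass in the same hearts. It gave 0.42, -0.80 and -0.84 in controls and 0.12, 2.51 and 1.18 in icKO. Control replicate 1 lay above icKO replicate 1, and the difference was 1.67 ± 0.64 (adjusted p = 0.0749). Without icKO replicate 1 it was called higher (2.25, adjusted p = 0.0287), as it was with normexp, spike-in scaling and the slide row as a block. Ccr2, the receptor of Ccl2 and Ccl12 on monocytes, was above background on 0 controls and 2 icKO arrays and was not tested.

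In the interleukin-1 and Toll-like receptor pathway 4 of 18 genes were higher and 3 lower, or 10 and 1 with spike-in scaling. Above background on all 6 arrays, 3 of 14 were higher and 3 lower. Cd14, the lipopolysaccharide co-receptor of Tlr4, was measured at 0.59, -0.02 and -0.26 in controls and at 1.99, 2.17 and 1.88 in icKO. The groups were separate, and the difference was 1.91 ± 0.23 (adjusted p = 0.00145). The adaptor Myd88 rose by 0.45 ± 0.11 (adjusted p = 0.0187), a call lost without control replicate 2 (0.45, adjusted p = 0.0552), control replicate 3 (0.41, adjusted p = 0.0656) or icKO replicate 2 (0.38, adjusted p = 0.0538). Tlr6, a partner of Tlr2, was dim in every control, so it entered the test only through the icKO hearts, where it was at least 1.65-fold brighter. The fit on its readings gave 1.01 ± 0.24 (adjusted p = 0.0174). Its call was lost with normexp (0.07, adjusted p = 0.600) and without control replicate 3 (0.96, adjusted p = 0.0555) or icKO replicate 2 (0.87, adjusted p = 0.0528). Pycard, the inflammasome adaptor ASC, fell by 1.26 ± 0.15 (adjusted p = 0.00140). Irak2, a kinase downstream of Myd88, fell by 0.54 ± 0.10 (adjusted p = 0.00699), a call that spike-in scaling removed (-0.09, adjusted p = 0.633). Il1rn, the interleukin-1 receptor antagonist, was well above background on no array.

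In the TNF and NF-kappa-B pathway 6 of 20 genes were higher and 1 lower, or 15 and 0 with spike-in scaling. Tnip1, a partner of the inhibitor A20, rose by 1.15 ± 0.10 (adjusted p = 0.000485), the ubiquitin ligase Birc3 by 0.94 ± 0.10 (adjusted p = 0.00107) and the TNF receptor Tnfrsf1a by 0.95 ± 0.10 (adjusted p = 0.00109). Rela, the p65 subunit of NF-kappa-B, was measured at 4.67, 4.64 and 4.66 in controls and at 4.92, 4.82 and 4.87 in icKO. The groups did not overlap, but the difference of 0.22 ± 0.09 did not pass (adjusted p = 0.0808). It was called higher with normexp, with quantile, median and spike-in scaling, with the authors' value table and with trend and robust eBayes. Tnfsf12, which encodes TWEAK, the ligand of Tnfrsf12a, fell by 0.38 ± 0.12 (adjusted p = 0.0471). The difference did not pass without any 1 of the 6 arrays (-0.27 to -0.45), and with spike-in scaling the difference was 0.07 (adjusted p = 0.741). A second probe of Tnfsf12 differed by 0.03 (adjusted p = 0.840 over probes).

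In the interleukin-6 family and JAK-STAT pathway 1 of 17 genes was higher and 3 lower, or 7 and 0 with spike-in scaling. Of the 14 above background on all 6 arrays, 0 were higher and 3 lower. Il6st, the shared receptor gp130 that Il6ra and Osmr work with, differed by 0.08 ± 0.12 (adjusted p = 0.619). Stat3 was measured at 5.17, 4.70 and 5.12 in controls and at 5.25, 5.51 and 5.39 in icKO. The groups came close to overlapping, and the difference was 0.39 ± 0.16 (adjusted p = 0.0830). It was called higher under 7 alternatives, among them normexp, quantile normalization and spike-in scaling. The 1 gene that rose was Il11 (1.08 ± 0.17, adjusted p = 0.00415), above background on 1 of 3 controls and not called with normexp (0.13, adjusted p = 0.242). Stat5a fell by 0.88 ± 0.17 (adjusted p = 0.00857) and Ctf1, cardiotrophin-1, by 0.70 ± 0.18 (adjusted p = 0.0197). Both calls were lost with spike-in scaling (-0.44 and -0.26, adjusted p = 0.174 and 0.403), and that of Ctf1 without control replicate 2 (-0.63, adjusted p = 0.0629) or 3 (-0.70, adjusted p = 0.0574). Osm, the ligand of Osmr, was well above background on no array.

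Of 15 other cytokine and cytokine receptor genes tested, 6 were higher and 3 lower, or 7 and 1 with spike-in scaling. Above background on all 6 arrays, 5 of 13 were higher and 4 lower. Csf2rb, the signalling subunit shared by the GM-CSF, interleukin-3 and interleukin-5 receptors, rose by 2.11 ± 0.15 (adjusted p = 0.000329), and its second probe gave 0.90 ± 0.12. Il4ra rose by 1.70 ± 0.13 (adjusted p = 0.000419), although its second probe differed by 0.25. Csf1r, the receptor of Csf1 and Il34, was measured at 4.86, 4.47 and 4.49 in controls and at 5.53, 5.87 and 5.71 in icKO. It rose by 1.1 ± 0.15 (adjusted p = 0.00240), and its other probes gave 1.31 and 0.55. Csf1r is also 1 of the macrophage markers given below. Ifngr2, a subunit of the interferon-gamma receptor, fell by 1.53 ± 0.19 (adjusted p = 0.00159). Il15ra, which presents Il15, fell by 0.60 ± 0.09 (adjusted p = 0.00263), and spike-in scaling removed that call too (-0.16, adjusted p = 0.426).

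Of 9 leukocyte adhesion genes tested, 5 were higher and none lower, or 4 and 0 of the 8 above background on all 6 arrays. Selp, P-selectin, was dim in every control, so it entered the test only through the icKO hearts, where it was at least 3.12-fold brighter. The fit on its readings gave 2.11 ± 0.32 (adjusted p = 0.00359), a call lost with normexp (0.38, adjusted p = 0.0918). Itga4, the integrin subunit that binds Vcam1, rose by 0.73 ± 0.13 (adjusted p = 0.00588). Itgb2, a subunit of the integrins that bind Icam1, rose by 0.80 ± 0.19 (adjusted p = 0.0177). The difference did not pass without control replicate 2 (0.67, adjusted p = 0.0525), control replicate 3 (0.73, adjusted p = 0.0587) or icKO replicate 1 (0.70, adjusted p = 0.0517).

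**Figure D5:**
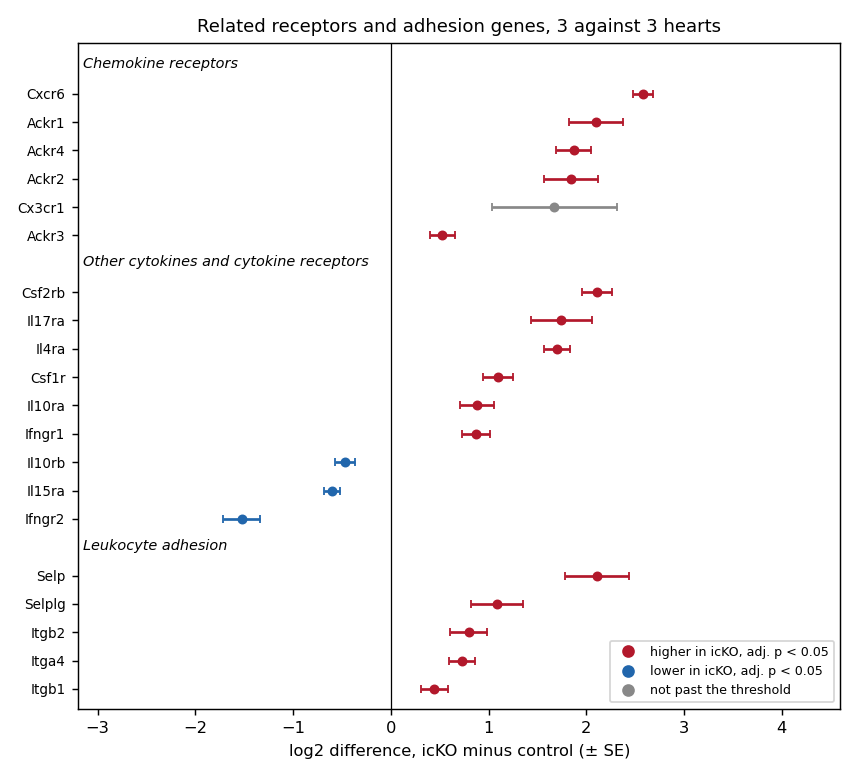
Log2 difference (icKO minus control, x axis) of the chemokine receptor, other cytokine receptor and adhesion genes outside the 39-gene list that passed the threshold, and of Cx3cr1, with bars of 1 standard error and 3 hearts a group. Red marks genes called higher, blue genes called lower and grey Cx3cr1, which did not pass, with Cxcr6 the largest rise and Ifngr2 the largest fall among those drawn.

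Markers of cell types that make or answer these molecules differed between the same hearts. Of 9 macrophage markers tested, 8 were higher and none lower, and their summed signal, in units of the array's 75th percentile, was 35.6 to 49.8 in controls and 80.6 to 106 in icKO. Fibroblast markers were higher for 5 of 6 (233 to 375 against 550 to 690). Of 5 neutrophil markers, 3 were higher and 1 lower, the sums overlapped (121 to 129 against 106 to 135), and Mpo was well above background on no array. Csf3r, at 6.62 to 6.98, carries that sum and did not pass (-0.27 ± 0.09). Elane was the marker called lower (-0.92 ± 0.15, adjusted p = 0.00408). S100a8 and S100a9, named after their values were seen, were higher by 3.35 ± 0.57 and 3.02 ± 0.56 (adjusted p = 0.00505 and 0.00703). Retnlg, dim in every control, was at least 5.47-fold brighter in icKO and entered the test only through those hearts. Of the 4 neutrophil markers above background on all 6 arrays, 2 were higher and 2 lower. Dendritic cell markers gave 1 higher of 3, with Xcr1 and Cd209a dim on every array (0.323 to 0.468 against 0.967 to 1.28). The 1 called higher, Itgax, was dim in every control and entered the test only through the icKO hearts. The control sums include its readings under background. Only 1 dendritic cell marker was above background on all 6 arrays, and it was not called. Mast cell markers gave 2 higher and 1 lower of 5 (1.55 to 1.99 against 1.85 to 3.31). Of those higher, Cma1 was dim in every control and Cpa3 in 1 of 3. Above background on all 6 arrays, 0 of 3 mast cell markers were higher and 1 lower. Of 4 T cell markers, 1 was higher and 2 lower (0 lower with median or spike-in scaling), with Cd3g and Cd8a dim on every array (3.21 to 3.92 against 2.59 to 2.74). Neither of 2 B cell markers passed, and Pax5 was dim on every array (0.600 to 0.673 against 0.634 to 0.975). The 1 natural killer cell marker tested did not pass (0.124 to 0.297 against 0.131 to 0.291).

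Endothelial markers, from cells that carry Icam1, Vcam1 and Selp, gave none higher and 3 lower of 7 (63.8 to 74.4 against 47.2 to 61.3), or 1 lower with median and 0 with spike-in scaling. Smooth muscle and pericyte markers gave 1 higher and 2 lower of 6 (40.7 to 68.4 against 49.2 to 57.1). Mesothelial and epicardial markers gave 1 higher of 4 (2.80 to 5.50 against 4.19 to 8.04). Red cell markers gave 2 higher of 3 (352 to 630 against 623 to 1326). Of 6 cardiomyocyte markers, 5 were lower and none higher, or 1 lower with quantile normalization or spike-in scaling (6247 to 7790 against 4237 to 4661). The part of these cell types in the differences of the 39 genes was not tested.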

How the data were processed

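Cy3-labelled cRNA from ventricle RNA was hybridised, 1 heart sample per array, per the labels' protocols, and the sample titles call the samples biological replicates. The deposited files hold spot intensity on a linear scale from Agilent Feature Extraction 11.0.1.1, array design 028005 (mm9), per the file headers, while the submitters' processing notes name version 9.1. The authors' deposited value table, also intensity, served as an alternative, and the steps behind it are not stated in the labels.

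The processed signal, background-subtracted before deposit, was taken to log2 and each array's own 75th percentile of non-control probes was subtracted. Outlier spots were dropped and spots of a probe averaged. Probes had to be well above background on every array of the control or the icKO group (26152 of 55681). Names came through unversioned RefSeq accessions in a GRCm38.p6 gene table (26582 probes), and the brightest of these probes represents its gene. Groups were compared with limma 3.58.1 in R 4.3.3 (lmFit, eBayes and no term but the group), Benjamini-Hochberg adjusted over 22278 features, and the steps were tested on simulated data. A probe dim on every array of a group is given as "at least N-fold": the mean log2 level of the bright group is set against that of a floor in the dim group, which on each array is the dimmest signal still well above background or, if larger, the signal of the probe itself.

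Every listed gene is named. From each related pathway list, up to 3 called higher and 2 called lower are named by smallest p, with Ccr2, Cx3cr1, Il1rn, Myd88, Rela, Il6st, Osm, Stat3, Csf1r and Itgb2 whatever their result. Tested pathway genes that were dim in every control are also named. The genes, the pathway and marker lists and these rules were chosen with earlier results of these data known. Alternatives were normexp background correction (on the median spot signal, offset 50), quantile, median and spike-in scaling (5 probes), the value table, other filters, keeping outlier spots, averaging the probes of a gene, eBayes with trend and robust options, replicate number, slide row or slide column as a block, and leaving out each array. Testing every kept probe by itself was added after the data were seen. All arrays share 1 slide. The number of arrays limits the precision. Some items of the lists are not reported here.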

Additional observations from a re-analysis of the deposited data

How the results depend on the processing

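The count of genes of the list called higher (16 of 32) lay between 12 and 21 under all settings but the slide column as a block. The count called lower was 2 except when 1 array was left out. With no filter on dim probes, however, these 2 were Ccl11 and Il15, and Cxcl9 was not called. Leaving out each array gave 13 to 16 higher and 1 to 3 lower, 21 to 27 related pathway genes higher and 7 to 11 lower, and 7546 to 9030 features called. The 18 called genes kept their direction throughout. Among the uncalled differences, Csf1 turned to 1.02 with the mean of its probes and to 1.63 and 1.47 for its single dimmer probes, against -0.04. Ccl6, Ccl7, Cxcl1, Cxcl10, Cxcl12, Cxcl14, Il33 and Il1rl1 changed sign under at least 1 alternative without passing there.

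The slide column as a block gave 3080 called features against 9974, 7 genes of the list higher, and 11 related pathway genes higher and 1 lower. In that fit the comparison within a column rests on 1 control and 1 icKO array alone, since the other columns hold 1 group each. With no filter on dim probes, where 49244 features were tested, 6123 features and 6 related pathway genes lower were called, and 12 of the 39 genes were higher. Spike-in scaling gave 52 related pathway genes higher and 2 lower, against 27 and 10, and median scaling gave 6 lower. The cause of these shifts was not tested.

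Replicate numbers did not pair the hearts: deviations from the group means correlated at -0.05, -0.13 and 0.00 for equal numbers. With the replicate number as a block, 7881 features were called, 14 genes of the list higher and 2 lower, and 25 related pathway genes higher and 8 lower. The genes whose calls it lost were Ccl12, Tlr4 and Nfkbia (adjusted p = 0.0842, 0.0583 and 0.0547), and it added Tnfrsf12a (adjusted p = 0.0401). The brightest Tead1 probe missed the threshold in that fit (adjusted p = 0.0509). Signal over background limits Il6, Il1b, Ackr1, Tlr6 and Selp to bounds, and leaves Ccl11, Il18 and Ccr2 untested in the main fit.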
